A study of Mus musculus with 2 samples.

Results

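The Myc family, the D-type cyclins and the genes that act with them were examined as 10 members, Myc, Mycn, Mycl, Max, Ccnd1, Ccnd2, Ccnd3, Cdk4, Cdk6 and Cdkn1a, chosen by name and not by their values. Each member was measured by the peaks that overlapped its gene body or the 2 kb upstream of it (GENCODE M21 annotation, mouse build mm10, GRCm38). Accessibility was read by single-nucleus ATAC-seq, which counts the sites that a transposase cuts in the open chromatin of each nucleus. Kidneys were taken from B6 embryos at E15.5, with 1 library for each of 2 groups. Enl-WT embryos were Enl+/+ Wt1GFPCre/+. Enl-T1 embryos were Enl flox-T1/+ Wt1GFPCre/+ and carried 1 copy of the ENL-T1 mutation, a short in-frame insertion in ENL (Mllt1) seen in Wilms tumour, switched on by the Cre. Both groups had Cre knocked in at 1 Wt1 allele, so every nucleus measured lacked 1 normal copy of Wt1. By the study, this Cre acts in nephron and stromal progenitors, and the ureteric epithelium and endothelium lie outside those lineages. How many embryos each library pooled is not stated in the sources used here, and the ATAC counts do not show the insertion, so they do not check the genotype.

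MYC, MYCN and MYCL are transcription factors that bind DNA as a pair with MAX, at the E-box CACGTG, and drive growth and division. D-type cyclins are made in response to growth signals and activate the kinases CDK4 and CDK6, which phosphorylate the retinoblastoma protein and so free E2F factors to start DNA synthesis. CDKN1A (p21) inhibits cyclin-dependent kinases. In the fetal kidney, Mycn and Myc are known for keeping nephron progenitors dividing, and Ccnd1 is a known product of Wnt signalling.

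The members held 66 of the 159560 peaks of Enl-WT and 56 of the 130027 peaks of Enl-T1. Peaks were joined across libraries where they shared 1 bp or more, which gave 51 shared regions for the members of 110706 in all. All 10 members had at least 1 shared region. Cdk4 had 1, at its start. Mycn and Max had 2 each, and Myc, Mycl and Cdkn1a had 3 each. Ccnd1 had 4, Ccnd2 had 5, Ccnd3 had 11 and Cdk6, the longest gene, had 17. A further 15 peaks of Enl-WT and 4 of Enl-T1 had no partner in the other library, and all of these lay in Ccnd3 or Cdk6. Over the whole series this held for 47872 of the 159560 Enl-WT peaks and 17478 of the 130027 Enl-T1 peaks (13.4%), a larger share than among the members' peaks in both libraries. The peak over the 5′ end of Cdk6 was called in Enl-WT alone, with 181 counts in nephron progenitor-like nuclei, and was not used in any ratio. A shared region inside Ccnd1 (chr7:144931412-144932389) also lies in the gene body of another coding gene, so its counts cannot be given to Ccnd1 alone.

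The promoters of 7 of the 10 members matched RefSeq (GRCm38.p6), and Myc, Ccnd1 and Ccnd2 had no entry. The 250 bases before the start were searched on both strands for the E-box CACGTG, for the TCF/LEF motif CTTTGAT and for the E2F motifs TTTGGCGC, TTTCCCGC, TTTCGCGC and TTTGCCGC, the letters of the factors that act on this gene set or carry Wnt signals. Of 32817 promoters, 6.02% held the E-box, 3.21% the TCF/LEF motif and 1.86% an E2F motif. The promoters of 3 members held a match and are shown in the direction of the gene, with matches in capitals. Mycn is given only as far as its first annotated exon.
Mycn, chr12:12941915-12942086, minus strand: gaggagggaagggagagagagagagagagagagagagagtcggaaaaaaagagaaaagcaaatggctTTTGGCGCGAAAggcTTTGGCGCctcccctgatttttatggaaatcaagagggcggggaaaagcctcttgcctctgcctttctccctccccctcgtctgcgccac
Cdk4, chr10:127063285-127063533, plus strand: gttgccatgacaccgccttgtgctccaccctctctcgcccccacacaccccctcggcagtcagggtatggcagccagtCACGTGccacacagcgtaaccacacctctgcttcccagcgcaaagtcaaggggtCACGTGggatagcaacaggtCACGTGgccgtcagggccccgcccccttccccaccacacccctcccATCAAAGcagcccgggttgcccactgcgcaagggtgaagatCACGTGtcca
Cdk6, chr5:3343643-3343892, plus strand: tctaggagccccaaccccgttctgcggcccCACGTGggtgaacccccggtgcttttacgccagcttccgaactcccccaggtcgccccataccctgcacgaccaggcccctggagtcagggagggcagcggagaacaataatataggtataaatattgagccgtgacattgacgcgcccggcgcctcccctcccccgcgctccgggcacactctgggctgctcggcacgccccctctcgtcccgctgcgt
The promoter of Cdk4 held 4 E-boxes and 1 TCF/LEF motif. The promoter of Mycn held 3 E2F matches, of which the first and an E2F motif on the other strand overlap. The promoter of Cdk6 held 1 E-box. The same letters were not found in this window before the RefSeq starts of Mycl, Max, Ccnd3 and Cdkn1a. A match is a run of letters and was not tested as a binding site.

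Barcodes with 2000 to 100000 counts were kept, which left 9472 nuclei with a median of 14789.5 counts in the Enl-WT library and 12635 with a median of 8753 in the Enl-T1 library. The same barcode sequence occurred in both libraries 169 times. Nuclei were clustered without the members' regions, and classes were named from marker genes. Nuclei called nephron progenitor-like came to 1935 in Enl-WT against 4265 in Enl-T1, with 2893 and 4711 stroma-like, 885 and 1720 ureteric epithelium-like, and 715 and 512 endothelial-like nuclei. Different clusters made up the progenitor-like class: cluster 2 held 1911 of the Enl-WT nuclei and 92 of Enl-T1, while cluster 0 held 24 and 4173. The 10 leading genes of neither cluster included a progenitor marker. The first leading gene of cluster 2 was Umod, which is on the marker list of distal tubule or loop. Stroma-like clusters 9 (2 and 1110 nuclei) and 10 (120 and 979) were also mostly of Enl-T1. Marker levels were then read in each class. In all 4 classes and both libraries, 3 of 8 immune markers, 3 of 7 erythroid markers and 2 of 5 neural markers were at 0. Because these counts were the same everywhere, they say nothing about the purity of a class. The summed level of the 8 progenitor markers in progenitor-like nuclei was 346 CPM (counts-per-million scaling) in the Enl-WT library and 288 in the Enl-T1 library, and the 8 markers of early nephron epithelium summed to 323 and 415. The 8 podocyte markers summed higher than the progenitor markers in the same nuclei, at 510 and 469 CPM. Such sums therefore do not by themselves give the name of the class. In the other 3 classes, the class's own markers differed by less between the libraries (667 and 646 CPM for stroma, 716 and 696 for ureteric epithelium, 1534 and 1493 for endothelium).

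Counts were summed over the nuclei of a class and given as CPM over shared regions. About 2 counts stand for 1 fragment, and 95% intervals are exact intervals on fragments that cover counting error only. With 1 library in each group there was no replicate spread and no test. A log2 ratio of Enl-T1 to Enl-WT of at least 0.5 in either direction was used as the mark of size.

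In nephron progenitor-like nuclei the members with the highest ratios were Ccnd2 and Mycn, and none passed 0.5 on the log2 scale. Of 16785 protein-coding genes with at least 50 counts, 2.72% were past 0.5 upward and 3.35% downward, beside 0 of 10 members in either direction. The ratio was above 0 for 8 of 10 members and 52.2% of all genes, with a median of 0.12 against 0.01 over all genes. With nuclei thinned to 2000 counts the members' median was 0.00. The marker levels of progenitors and early epithelium differed between the libraries in this class, and their part in these ratios was not tested.

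**Figure D1:**
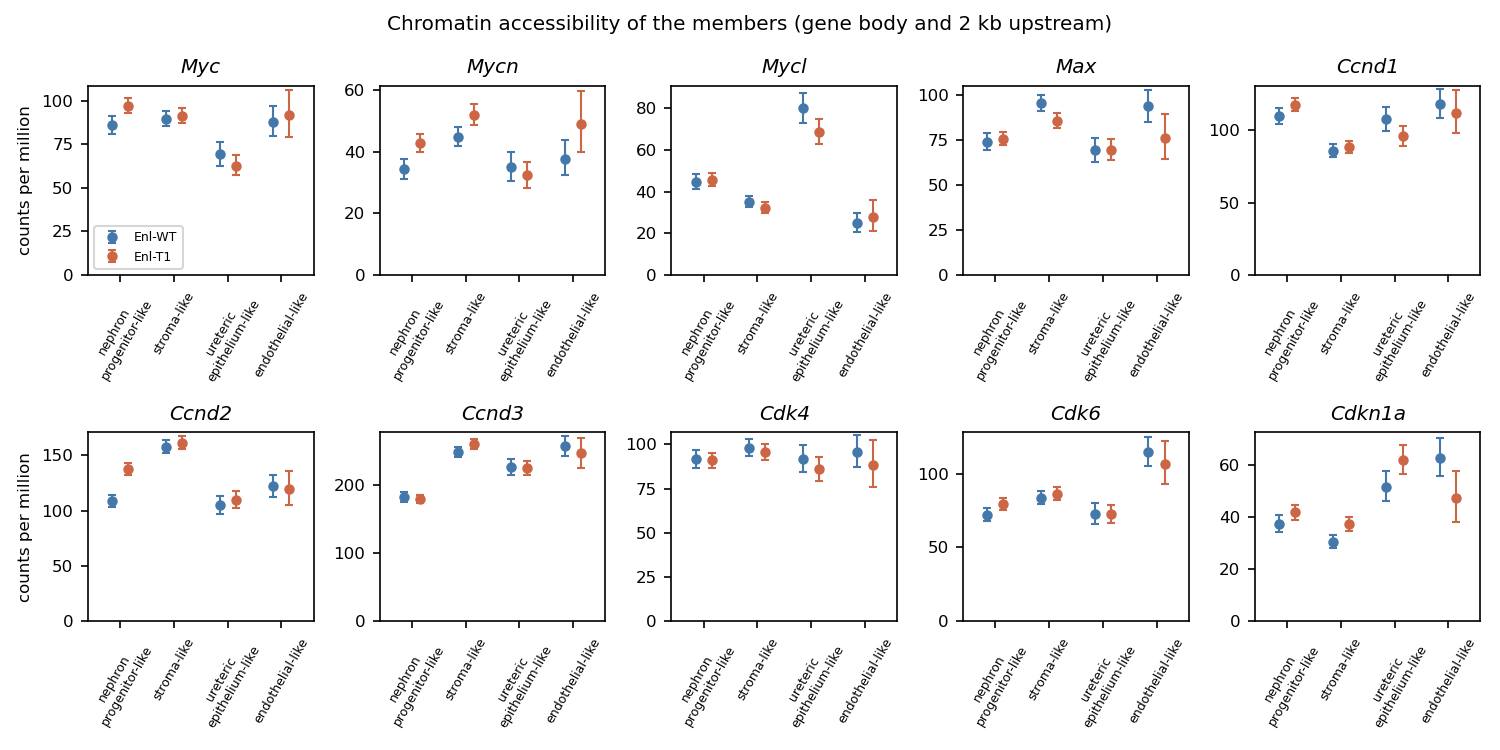
Level of each member in CPM (y axis, from 0) in 4 cell classes (x axis), summed over the gene body and 2 kb upstream. Points are the 1 library of each group and bars are 95% counting intervals; in nephron progenitor-like nuclei Ccnd2 stood at 109 in Enl-WT and 138 in Enl-T1, while Cdk4 stood at 91.5 and 91.0.

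Myc (ENSMUSG00000022346.15, chr15:61985391-61990374, plus strand) had 86.0 CPM (81.1 to 91.0) in Enl-WT and 97.1 CPM (92.8 to 101.5) in Enl-T1 progenitor-like nuclei, a log2 ratio of 0.18 (0.07 to 0.28). With each nucleus thinned to 2000 counts, the ratio of Myc was -0.04. Mycn (ENSMUSG00000037169.15, chr12:12936093-12941914, minus strand) had 34.4 CPM (31.3 to 37.6) and 42.7 CPM (39.9 to 45.7), a log2 ratio of 0.31 (0.15 to 0.48), above that of 92.7% of all genes. The intervals of the libraries did not overlap for either gene. Mycl (ENSMUSG00000028654.13, chr4:122995652-123002485) had 44.6 and 45.7 CPM, and its ratio of 0.03 (-0.12 to 0.18) could not be told from 0. MAX, the partner of all 3, showed no detectable difference either. Max (ENSMUSG00000059436.13, chr12:76937269-76962201) had 74.2 and 75.8 CPM, with a log2 ratio of 0.03 (-0.09 to 0.15).

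Among the D-type cyclins the ratio was highest for Ccnd2, lower for Ccnd1 and near 0 for Ccnd3. Ccnd2 (ENSMUSG00000000184.12, chr6:127125162-127152193, minus strand) had the largest ratio of the 10 members. It stood at 109 CPM (103 to 114) in Enl-WT and 138 CPM (133 to 143) in Enl-T1, giving a log2 ratio of 0.34 (0.25 to 0.43), above that of 93.8% of genes. The ratio of Ccnd2 was 0.20 where the libraries were clustered separately, which left 1007 Enl-T1 nuclei in the class. In that run the largest Enl-T1 cluster, of 3150 nuclei, was not named progenitor-like. At resolution 2 a cluster with 1800 Enl-T1 nuclei stayed unnamed, so the name of many of these nuclei depended on the clustering. Ccnd1 (ENSMUSG00000070348.5, chr7:144929931-144939925, minus strand) had 109.6 and 118 CPM, a log2 ratio of 0.10 (0.01 to 0.20). The ratio of Ccnd1 was -0.04 per kb of peak, where each library's total was also divided by the length of its shared peaks. Ccnd3 (ENSMUSG00000034165.16, chr17:47505051-47599691), which has the most counts of the members, had 183 CPM in Enl-WT and 180.1 CPM in Enl-T1, giving a log2 ratio of -0.02 (-0.10 to 0.05).

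Of the kinase genes and the inhibitor gene, Cdk4 was nearly level and Cdk6 and Cdkn1a were higher in the Enl-T1 library by small amounts, the direction of Cdk6 turning in 2 of 12 alternatives. Cdk4 (ENSMUSG00000006728.12, chr10:127063534-127067920), whose promoter with its 4 E-boxes is shown above, had 91.5 and 91.0 CPM, a log2 ratio of -0.01 (-0.11 to 0.10). Cdk6 (ENSMUSG00000040274.11, chr5:3341485-3531008) had 72.2 and 79.2 CPM and a log2 ratio of 0.13 (0.02 to 0.25), which was -0.10 over peaks with 80% reciprocal overlap and -0.02 with thinned nuclei. Cdkn1a (ENSMUSG00000023067.14, chr17:29090976-29100727) had 37.4 and 41.9 CPM, a log2 ratio of 0.16 (0.00 to 0.33).

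**Figure D2:**
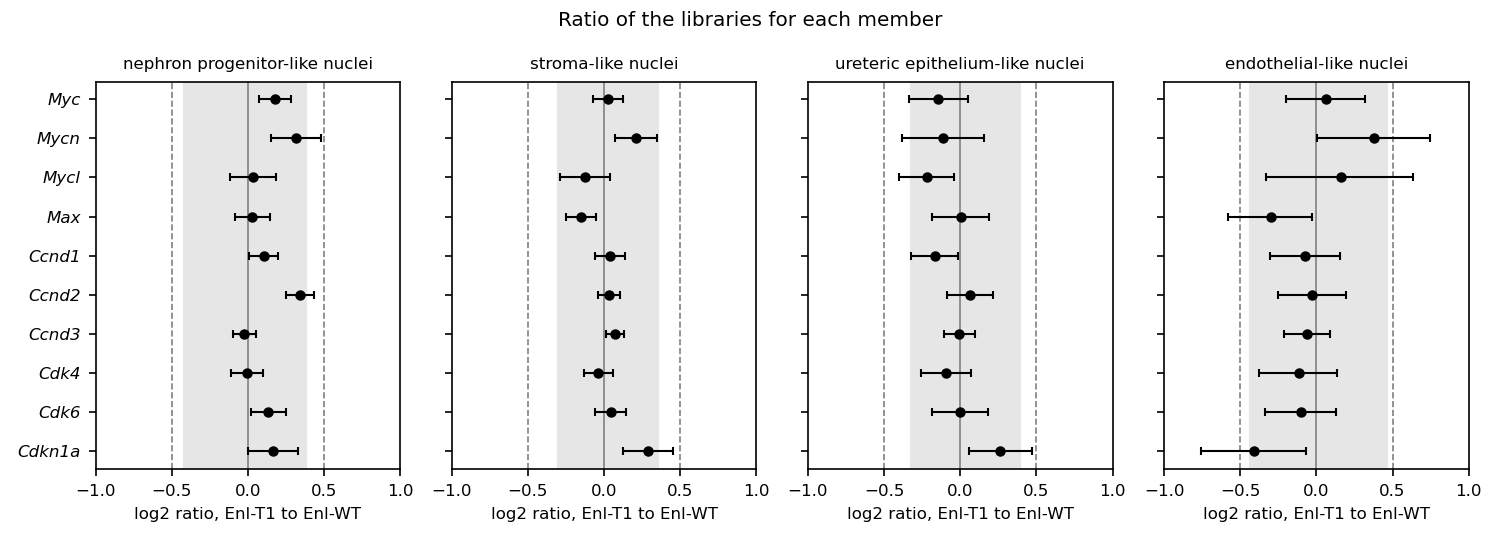
Log2 ratio of Enl-T1 to Enl-WT (x axis) for each member (y axis) in the 4 classes. Points are ratios, bars 95% counting intervals, the grey band the central 90% of all genes and the dashed lines 0.5 in either direction; no member lay past a dashed line.

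Stroma-like nuclei, the other lineage in which the Cre acts, had a different order of members. Of all genes, 2.28% were past 0.5 upward and 1.54% downward, beside 0 members in either direction, and the members' median ratio was 0.04, against 0.00 over all genes. Cdkn1a had 30.5 CPM (28.1 to 33.2) in Enl-WT and 37.3 CPM (34.6 to 40.2) in Enl-T1, giving a log2 ratio of 0.29 (0.13 to 0.45). Mycn had 45.0 and 52.0 CPM, a log2 ratio of 0.21 (0.07 to 0.35). The Cdkn1a and Mycn intervals of the libraries did not overlap. Max stood the other way, at 95.5 CPM in Enl-WT and 85.9 CPM in Enl-T1, giving a log2 ratio of -0.15 (-0.25 to -0.05). Ccnd2, the leading member in progenitors, had 158 and 161 CPM in stroma-like nuclei and a ratio of 0.03 (-0.04 to 0.11). Myc had 89.6 and 91.3 CPM, a ratio of 0.03 (-0.07 to 0.13).

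In the classes outside the Cre lineages the members' medians were near those of all genes and their sign depended on the scaling. In ureteric epithelium-like nuclei the median was -0.05 against -0.01 over all genes, and 0.05 when scaled to all called peaks. There 3 of 10 members and 47.0% of all genes were above 0, and 0 members were past 0.5, beside 3.07% of all genes upward and 1.49% downward. Mycl, which had its highest Enl-WT level of the 4 classes here, had 79.99 CPM in Enl-WT and 68.7 CPM in Enl-T1, giving a log2 ratio of -0.22 (-0.40 to -0.04). Ccnd1 had 108 and 96.0 CPM, a ratio of -0.17 (-0.32 to -0.01). Cdkn1a had 51.6 and 62.0 CPM, a ratio of 0.26 (0.06 to 0.47). Mycn had 35.0 and 32.3 CPM, a ratio of -0.11 (-0.38 to 0.16), so that no difference was detectable at this depth.

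In endothelial-like nuclei, the smallest of these 4 classes, the median was -0.07 against 0.00 over all genes, and 0.08 when scaled to all called peaks. There 3 of 10 members and 49.2% of all genes were above 0, and 0 members were past 0.5, beside 4.28% of all genes upward and 3.59% downward. Cdkn1a had 62.8 CPM (55.8 to 70.4) in Enl-WT and 47.4 CPM (38.3 to 57.9) in Enl-T1, giving a log2 ratio of -0.41 (-0.76 to -0.07). Its ratio was above 0 in the other 3 classes and below 0 here, and the difference between the classes was not tested. Max had 93.8 and 76.2 CPM, a ratio of -0.30 (-0.58 to -0.03), with the same narrower start peak in Enl-T1. Mycn had 37.8 and 49.1 CPM, a ratio of 0.38 (0.01 to 0.74). At the 5′ end of Mycn alone the endothelial ratio was 0.17 (-0.31 to 0.63).

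Because the libraries filled different clusters, the ratio was also taken within each cluster that had at least 20% of its nuclei, and at least 50 nuclei, from each library. There were 9 such clusters, 4 of them stroma-like, and none was progenitor-like. Mycn had a log2 ratio of 0.40 (0.16 to 0.65) in cluster 1 and 0.24 (-0.04 to 0.53) in cluster 3, the largest stroma-like clusters of this kind. It had 0.23 in cluster 5, 0.36 in cluster 16 and 0.38 in the endothelial-like cluster 6, and -0.01 (-0.32 to 0.28) in the ureteric epithelium-like cluster 4. In the unnamed clusters 7 and 14 it was -0.26 and 0.26, and in the immune-like cluster 15 it was -0.27. The ratio of Mycn was thus above 0 in 6 of the 9, and the interval lay above 0 in clusters 1 and 6. Cdkn1a had 0.35 (0.04 to 0.65) in cluster 1 but -0.17 (-0.64 to 0.27) in cluster 5. Max was below 0 in 7 of the 9, from -0.51 in cluster 16 to 0.32 (-0.24 to 0.89) in cluster 14, and its interval lay below 0 in cluster 6 alone. The narrower start peak of Max in Enl-T1 enters all of these ratios. Ccnd2 was above 0 in 6 of the 9, and its lowest ratio was -1.21 (-1.92 to -0.52) in the immune-like cluster. In progenitors, the 92 Enl-T1 nuclei that fell into cluster 2 had 80.6 CPM of Ccnd2 (56.1 to 112), beside 109 CPM (103 to 115) in the Enl-WT nuclei of the same cluster. They had 38.0 CPM of Mycn (21.9 to 61.3), beside 34.2 CPM. At this depth neither gene differed detectably within cluster 2. Cluster 0 held nearly all Enl-T1 nuclei of the class, so cluster and library cannot be told apart for the Ccnd2 level.

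**Figure D3:**
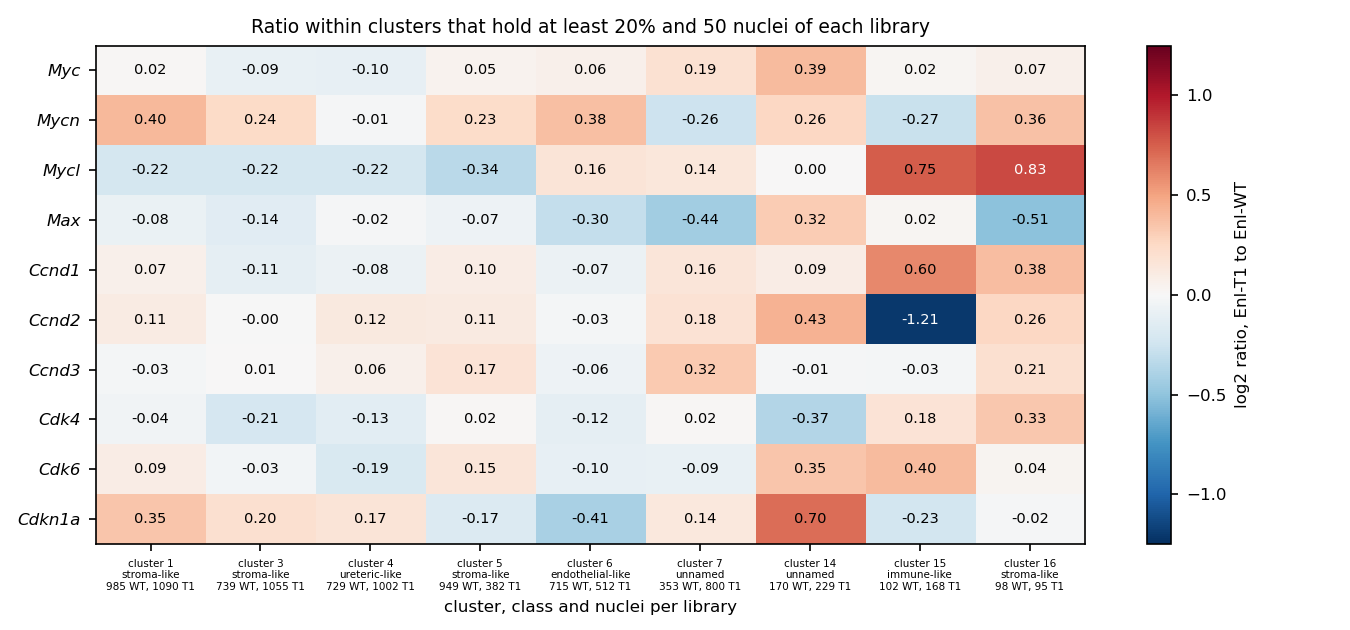
Log2 ratio of Enl-T1 to Enl-WT (colour and printed value) for each member (rows) within the 9 clusters with at least 20% of nuclei, and 50 nuclei, from each library (columns, with nuclei per library). Mycn is above 0 in 6 of the 9 columns and Max below 0 in 7, and the darkest cell is Ccnd2 in the immune-like cluster at -1.21.

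The members' ratios were then split into single regions. In progenitor-like nuclei, 42 shared regions of the members had at least 200 counts, and 3 were past 0.5 upward and 1 downward, beside 13.6% and 14.9% of 74970 regions of the whole series. The 10 of them over an annotated start lay between -0.13 and 0.34. The start of Myc (chr15:61984928-61985824) had 43.3 CPM in Enl-WT and 51.6 CPM in Enl-T1, giving a log2 ratio of 0.25 (0.10 to 0.40). The region upstream of Myc, centred at -1933 bp from the 5′ end (chr15:61982966-61983951), had 12.7 and 16.5 CPM, a ratio of 0.38 (0.11 to 0.65), while the region over its exons had 29.9 and 28.9 CPM. The difference at Myc thus lay at and before the start. The start of Mycn (chr12:12941597-12942371), which includes the E2F motifs printed above, carried most of its counts, with 29.0 and 36.8 CPM and a ratio of 0.34 (0.17 to 0.52).

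At Ccnd2, 3 neighbouring regions were higher in the Enl-T1 library. The region that overlaps an exon 1262 bp inside the gene (chr6:127150375-127151487) had 25.7 CPM in Enl-WT and 38.2 CPM in Enl-T1, giving a log2 ratio of 0.57 (0.39 to 0.76). The start had 39.0 and 48.4 CPM, a ratio of 0.31 (0.15 to 0.46), and the upstream region 20.4 and 27.6 CPM, a ratio of 0.44 (0.23 to 0.66). Farther into the gene, at 4095 and 9837 bp, the ratios were -0.09 and 0.16, and both intervals spanned 0. The peaks differed in width between the libraries: the region inside the gene measured 856 bp in the Enl-WT peaks and 1113 bp in those of Enl-T1, and the upstream region 1399 and 941 bp. In stroma-like nuclei the 3 regions had ratios of 0.18, 0.02 and -0.10.

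**Figure D4:**
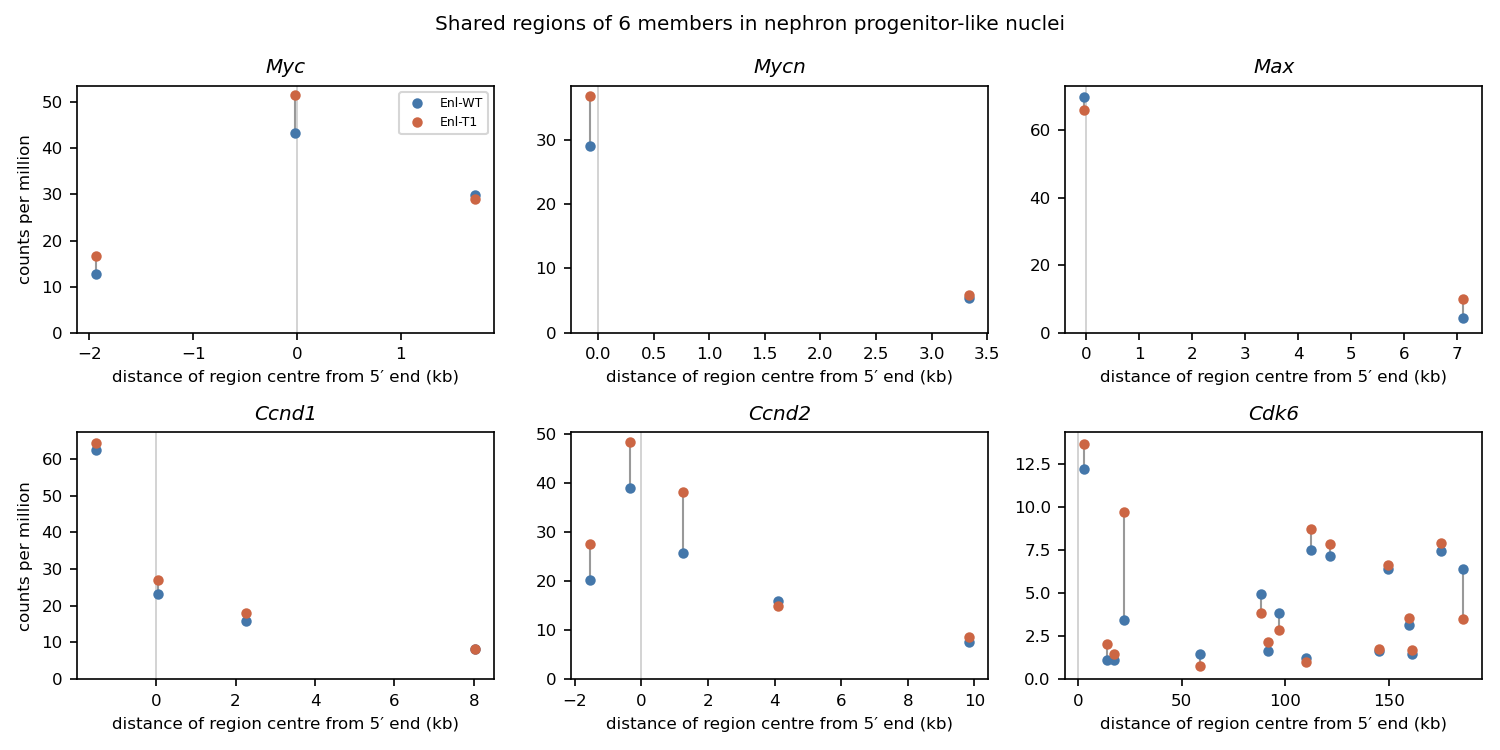
Shared regions of 6 members in nephron progenitor-like nuclei, by distance of the region's centre from the annotated 5′ end in kb (x axis) and level in CPM (y axis, from 0). Blue points are Enl-WT and orange points Enl-T1, joined by a line; the widest gap, 25.7 against 38.2, is just inside Ccnd2, and the intronic region of Cdk6 at 21902 bp stands at 3.42 and 9.70.

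The largest ratios in progenitor-like nuclei were at regions inside introns that were weak in that class. An intronic region of Cdk6, 21902 bp from the 5′ end (chr5:3362812-3363962), had 3.42 CPM in Enl-WT and 9.70 CPM in Enl-T1 progenitor-like nuclei, a log2 ratio of 1.51 (1.04 to 2.00). In stroma-like nuclei it had 2.38 and 2.34 CPM. An intronic region of Max, 7116 bp from the 5′ end (chr12:76954615-76955555), had 4.41 and 9.90 CPM in progenitor-like nuclei, a ratio of 1.17 (0.74 to 1.61). In stroma-like nuclei the same region of Max was stronger in both libraries, at 21.7 and 23.4 CPM. The region past 0.5 downward overlapped the last part of Cdk6, 185972 bp from the 5′ end (chr5:3527013-3527902), with 6.43 and 3.47 CPM and a ratio of -0.89 (-1.36 to -0.42). The middle 300 bases of the Cdk6 and Max regions that were higher in Enl-T1 progenitor-like nuclei are shown on the plus strand. They carried the largest ratios among the members in that class.
Cdk6 intron, chr5:3363238-3363537: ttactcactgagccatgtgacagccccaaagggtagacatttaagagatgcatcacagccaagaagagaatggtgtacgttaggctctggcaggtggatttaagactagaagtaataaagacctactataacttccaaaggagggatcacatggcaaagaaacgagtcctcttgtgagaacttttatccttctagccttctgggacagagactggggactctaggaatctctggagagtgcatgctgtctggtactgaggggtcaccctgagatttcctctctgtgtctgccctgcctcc
Max intron, chr12:76954936-76955235: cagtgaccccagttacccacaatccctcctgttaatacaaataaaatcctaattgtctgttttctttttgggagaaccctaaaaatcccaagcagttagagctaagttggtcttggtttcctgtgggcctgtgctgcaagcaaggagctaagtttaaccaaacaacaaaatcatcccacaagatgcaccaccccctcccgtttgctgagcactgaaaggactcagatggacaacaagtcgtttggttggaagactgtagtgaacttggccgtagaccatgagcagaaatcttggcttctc
Neither window held any of the motifs searched. Over the middle 300 bases of the shared regions, 5.59% held the E-box, 4.78% the TCF/LEF motif and 1.21% an E2F motif. RefSeq marks 6.33% of the bases of the Cdk6 window and 28.3% of the Max window as repeats, against a median of 8% over all shared regions.

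In the other classes fewer regions of the members were past 0.5. In stroma-like nuclei, 2 of 42 were past it upward and 1 downward, beside 9.88% and 8.31% of 77327 regions. The most counted region of Ccnd3 in progenitors, over an exon (chr17:47595449-47596375), had 24.5 CPM in Enl-WT and 36.6 CPM in Enl-T1 stroma-like nuclei, a log2 ratio of 0.58 (0.41 to 0.76), and 46.7 and 43.3 CPM in progenitor-like nuclei. An intronic region of Cdk6 (chr5:3354921-3356260) had 7.18 and 10.6 CPM in stroma-like nuclei, a ratio of 0.56 (0.23 to 0.89). The Enl-T1 peak was the wider one at this Cdk6 region, 1340 bp long beside 944 bp for the Enl-WT peak. The ratio was not scaled to peak width, and the part of width in it was not tested. An intronic region of Mycl (chr4:122998380-122999206) had 8.47 and 5.53 CPM, a ratio of -0.61 (-0.99 to -0.24). In ureteric epithelium-like nuclei, 1 of 31 regions was past 0.5 upward and 0 downward, beside 5.57% and 4.41% of 37115 regions. It lay in an intron of Ccnd2 (chr6:127141892-127142820), with a ratio of 0.67 (0.10 to 1.27). In endothelial-like nuclei, 0 of 24 regions were past 0.5 upward and 1 downward, beside 3.02% and 6.87% of 18350 regions. That one was the start of Cdkn1a (chr17:29093255-29094237), with 22.8 and 13.0 CPM and a ratio of -0.81 (-1.49 to -0.18). In progenitor-like and stroma-like nuclei the members' shares past 0.5 lay below those of all regions, which were not matched to them for depth.

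Shared regions within 100 kb of the 5′ end of Myc, Mycn and Ccnd1 but outside the genes' own windows were read singly. Some had larger ratios than the genes, but a gene's ratio sums several regions, so the 2 are unlike measures. The peak widths of the flanking regions were not compared between the libraries. In progenitor-like nuclei, 1 of the 2 regions around Myc with at least 200 counts was past 0.5 downward, as were 4 of 9 around Mycn and 4 of 10 around Ccnd1, and 1 region in all, near Mycn, was past it upward. The shares of all regions are those given above. The region near Myc was in Pvt1, a long noncoding RNA gene (chr15:62043091-62044272), and had 10.1 CPM in Enl-WT and 4.66 CPM in Enl-T1, giving a log2 ratio of -1.11 (-1.50 to -0.72). Near Mycn, the region 9758 bp past the 5′ end (chr12:12931406-12932907) had 29.4 and 16.0 CPM in progenitor-like nuclei, a ratio of -0.88 (-1.10 to -0.67), and 3.31 and 1.66 CPM in stroma-like nuclei. The Enl-T1 library was the lower in both classes. The region 13577 bp past the 5′ end (chr12:12927867-12928808) stood the other way in progenitors, at 3.75 and 7.79 CPM, a ratio of 1.06 (0.59 to 1.54). In stroma-like nuclei that region was open in both libraries, at 30.2 and 33.9 CPM. The region at -31163 bp (chr12:12972607-12973547) had 15.3 and 7.79 CPM in progenitors, a ratio of -0.97 (-1.28 to -0.67). The start of Mycn was thus higher in Enl-T1 progenitors while 4 regions around it were lower. Near Ccnd1, the region at -41362 bp (chr7:144980687-144981888) had 7.90 and 2.51 CPM in progenitors, a ratio of -1.66 (-2.17 to -1.16), and 1.58 and 2.07 CPM in stroma-like nuclei. Which gene a flanking region acts on was not tested. The middle 300 bases of the regions next to Mycn that moved in opposite directions are given on the plus strand, the first being the lower and the second the higher one in Enl-T1 progenitors.
Near Mycn, chr12:12932007-12932306: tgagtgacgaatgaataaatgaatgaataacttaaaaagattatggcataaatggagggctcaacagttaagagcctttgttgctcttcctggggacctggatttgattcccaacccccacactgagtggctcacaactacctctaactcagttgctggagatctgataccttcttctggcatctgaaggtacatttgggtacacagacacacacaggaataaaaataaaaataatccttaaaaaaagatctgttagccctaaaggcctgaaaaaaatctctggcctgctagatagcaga
Near Mycn, chr12:12928188-12928487: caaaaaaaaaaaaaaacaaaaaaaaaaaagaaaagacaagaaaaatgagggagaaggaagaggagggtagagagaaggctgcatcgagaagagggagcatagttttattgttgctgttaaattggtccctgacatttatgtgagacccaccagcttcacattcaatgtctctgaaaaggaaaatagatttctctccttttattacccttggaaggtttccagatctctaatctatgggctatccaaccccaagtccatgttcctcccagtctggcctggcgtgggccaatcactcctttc
Neither held the motifs searched. RefSeq marks 58% of the first window and 30.3% of the second as repeats, and 3.17% of all shared regions had over 50% of the window marked.

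**Figure D5:**
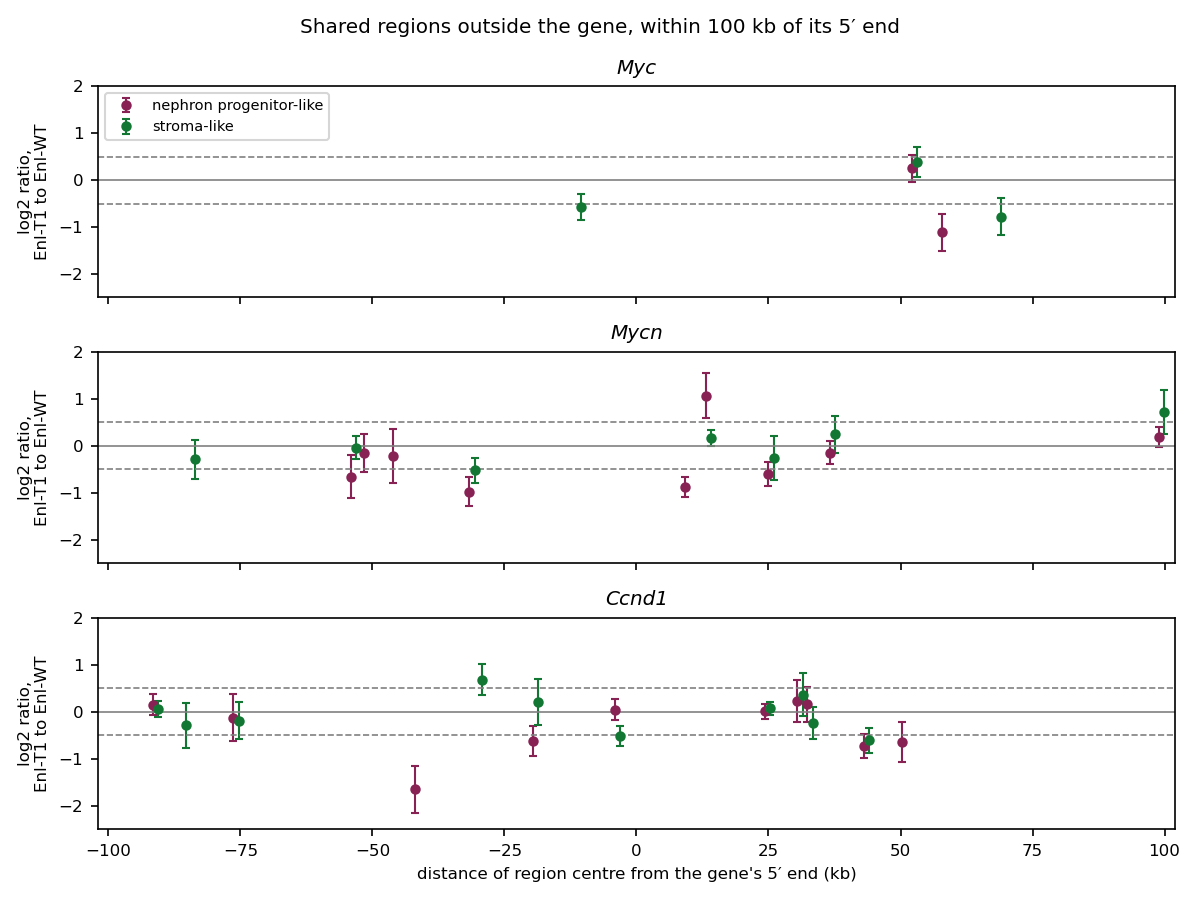
Log2 ratio of Enl-T1 to Enl-WT (y axis) for shared regions outside Myc, Mycn and Ccnd1, by distance of the region's centre from the gene's 5′ end in kb (x axis), for regions with at least 200 counts in nephron progenitor-like (purple) or stroma-like (green) nuclei. Bars are 95% counting intervals and dashed lines mark 0.5; near Mycn 4 purple points lie below -0.5 and 1 lies above 0.5.

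Levels of the members across cell classes were compared in every class with at least 50 nuclei of a library, and their order was much alike in both libraries. Per kb of peak, in the Enl-WT progenitor-like nuclei, Cdk4 was the highest member at 101 CPM per kb. Max followed at 36.0, Myc at 29.9, Mycn at 28.5 and Ccnd1 at 28.3. Ccnd2 had 19.3, Ccnd3 17.0, Mycl 15.4, Cdkn1a 13.4 and Cdk6 4.18 CPM per kb. In Enl-T1 Cdk4 was again the highest at 100.2 and Cdk6 the lowest at 4.87 CPM per kb. These values average over all shared regions of a gene. Cdk4 had its start alone, while most regions of Cdk6 were intronic and the peak over its 5′ end was left out.

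The Myc family genes differed in the classes where their levels were highest and lowest. Myc was highest in immune-like nuclei, at 110.2 CPM in Enl-WT and 112 CPM in Enl-T1, where its intervals overlapped those of progenitor-like, stroma-like and endothelial-like nuclei. It was lower in ureteric epithelium-like nuclei, at 69.2 and 62.7 CPM. Among Enl-WT nuclei it was lowest in nephron-like cluster 13, at 54.3 CPM (47.7 to 61.6). Mycn was highest in stroma-like nuclei in both libraries, and in Enl-WT its 45.0 CPM (42.0 to 48.2) there could not be told from the 41.6 CPM (36.9 to 46.7) of nephron-like cluster 8, nor in Enl-T1 its level from the 49.1 CPM of endothelial-like nuclei. It was lowest in immune-like nuclei, at 14.4 CPM (5.80 to 29.7) and 11.9 CPM (4.59 to 25.2), and in distal tubule or loop-like nuclei, at 25.4 and 15.3 CPM. Mycl had its highest levels in ureteric epithelium-like and distal tubule or loop-like nuclei, with 79.99 and 64.4 CPM in Enl-WT and 68.7 and 74.96 CPM in Enl-T1, and its lowest in endothelial-like nuclei.

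Of the cyclins, Ccnd2 was highest in stroma-like nuclei in both libraries. In the small immune-like class it had 116 CPM (88.1 to 151) in Enl-WT and 50.4 CPM (33.4 to 73.1) in Enl-T1, intervals that did not overlap. Ccnd3 was highest in immune-like nuclei, at 294 and 288 CPM, and its interval there overlapped that in endothelial-like nuclei. Cdk6 was highest in immune-like nuclei, at 143 and 189 CPM, and next in endothelial-like nuclei, at 115 and 107 CPM, which its immune-like level exceeded beyond the intervals in Enl-T1 but not in Enl-WT. Cdkn1a was also highest in immune-like nuclei, at 92.7 and 78.9 CPM, where its intervals overlapped that of endothelial-like nuclei in Enl-WT and that of ureteric epithelium-like nuclei in Enl-T1. It had its lowest Enl-WT level in stroma-like nuclei.

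The other genes of the pathway were read from 3 lists. Of 17 partners and antagonists of MYC and MAX, 0 were past 0.5 in progenitor-like nuclei, where 2.72% of all genes were past it upward and 3.35% downward. Of these partners 7 were above 0, against 52.2% of all genes, and the median ratio was -0.01, against 0.01 over all genes. Ruvbl1, a helicase of chromatin complexes that MYC recruits, had 32.5 and 41.8 CPM and a log2 ratio of 0.36 (0.19 to 0.53), and Mlx, a MAX-like partner of MXD proteins, had 0.24 (0.06 to 0.43). Zbtb17 (MIZ1), through which MYC represses genes, had -0.22 (-0.37 to -0.07), as did Bin1, whose product binds MYC, at -0.22 (-0.33 to -0.11). Of 25 other genes of the step from G1 to S phase, 0 were past 0.5, 12 were above 0, and the median was -0.02. Cdkn2c, an inhibitor of CDK4 and CDK6, had the highest ratio of this list, with 27.5 and 35.7 CPM and a log2 ratio of 0.38 (0.19 to 0.56). E2f7, a repressing E2F, had 0.26 (0.10 to 0.41). E2f3, an activating E2F, had -0.17 (-0.25 to -0.09), and Rbl1, a relative of the retinoblastoma gene, had -0.19 (-0.34 to -0.04). Of 18 commonly cited MYC targets, 0 were past 0.5, 12 were above 0, and the median was 0.02. The highest were Nme1, a nucleotide kinase, at 0.19 (0.04 to 0.34) and Shmt2, an enzyme of serine metabolism, at 0.18 (-0.03 to 0.38), and the lowest were Ncl (nucleolin) at -0.19 (-0.29 to -0.08) and Cdc25a, a phosphatase that activates CDKs, at -0.15 (-0.28 to -0.02). In the other classes 0 genes of the lists were past 0.5, except Trrap, a cofactor that MYC recruits, which was past it upward in endothelial-like nuclei and is named after its value was seen.

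The genes whose pattern was most like a member's were sought by Pearson correlation of log2(CPM + 1) over 15 pairs of class and library, which share their libraries and depth. For Myc they were Fancg (r = 0.87), Pelp1 (r = 0.85) and Nfx1 (r = 0.83). For Mycn they were Ehd3 (r = 0.91), Gpsm2 (r = 0.90) and Vegfa (r = 0.90). For Cdkn1a they were Tut7 (r = 0.95), Gba2 (r = 0.93) and Rgp1 (r = 0.93), of which Gba2 and Rgp1 had the same value.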

How the data were processed

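Nuclei of 1 kidney library per group were assayed. The authors made the counts with Cell Ranger ATAC 2.1.0 (submitters' processing notes, build mm10), with peak calling done per library, and deposited the cut-site counts per peak and barcode for 9628 barcodes of Enl-WT and 13376 of Enl-T1. The Enl-WT library held 138176616 counts and the Enl-T1 library 110265593. The study's filters on fragments were not applied here, since no fragment file was used.

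Barcodes with 2000 to 100000 counts were kept, which left 98.4% and 94.5%. Peaks were joined into shared regions with bedtools 2.31.1, and genes were assigned from GENCODE M21. Of all counts, 88.8% of Enl-WT and 94.9% of Enl-T1 lay in shared regions. Nuclei were embedded by latent semantic indexing (components 2 to 30, scikit-learn 1.9.0) and clustered by the Leiden method (15 neighbours, resolution 1, leidenalg 0.10.2, igraph 0.11.9), with the members' regions left out. Clusters were named from marker lists. The naming rule was set after the clusters were seen, and the members and lists were chosen with earlier results of these data known. Doublets were not removed except in an alternative, which left out 7.58% of the Enl-WT nuclei and 10.1% of the Enl-T1 nuclei by a score from simulated doublets.

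Of the values above 0 in the deposited counts, 80.1% (Enl-WT) and 81.2% (Enl-T1) were 2, so fragments were taken as counts divided by 2. Levels have exact Poisson intervals and log2 ratios exact binomial (Clopper-Pearson) intervals at 95%, with scipy 1.17.1, numpy 2.4.6 and Python 3.11.15. Genes with at least 50 counts and regions with at least 200 counts over both libraries were compared. The calculations were tested on simulated data. Where a member had several regions, the one with the most counts and the one with the largest ratio in progenitor-like nuclei were named, and of each list the 2 highest and the 2 lowest genes. Regions named in other classes or in the flanks of a gene were chosen after their values were seen. Sequences and repeat marks came from RefSeq GRCm38.p6. Alternatives changed the scaling (TMM factors of edgeR 4.0.16, median of ratios, total of all called peaks), the regions (peaks with 80% reciprocal overlap, per kb of peak, 5′ end alone), the nuclei (open or not, thinned to 2000 counts, at least 5000 counts, doublets removed), the clustering (resolution 0.5 and 2, libraries clustered separately) and the filter on genes.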

Additional observations from a re-analysis of the deposited data

Results flagged for a closer look

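Over the 4 classes compared in full, 2 of the 10 members had counting intervals on opposite sides of 0. Ccnd1 had a log2 ratio of Enl-T1 to Enl-WT of 0.10 in nephron progenitor-like nuclei and -0.17 in ureteric epithelium-like nuclei. Over the alternatives the first ranged from -0.04 to 0.18 and the second from -0.45 to -0.07. Cdkn1a had 0.16 in nephron progenitor-like nuclei, 0.29 in stroma-like nuclei and 0.26 in ureteric epithelium-like nuclei, against -0.41 in endothelial-like nuclei. In the immune-like cluster, outside these 4 classes, Ccnd2 had -1.21 (-1.92 to -0.52), against 0.34 (0.25 to 0.43) in nephron progenitor-like nuclei. The difference between classes was not tested in any of these genes, since each group had 1 library, and counting intervals leave out the spread between embryos and libraries.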

How the results depend on the processing

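Each ratio is 1 library against 1 other, so genotype, embryo, dissection and library preparation cannot be told apart, and the intervals cover counting error only. No paired analysis was possible because each group had 1 library. Over the 13 alternatives in progenitor-like nuclei, Mycn ranged from 0.19 to 0.42, Ccnd2 from 0.20 to 0.46 and Cdkn1a, over 12, from 0.02 to 0.29. Myc ranged from -0.04 to 0.26, the lowest with nuclei thinned to 2000 counts. Cdkn1a ranged from -0.66 to -0.26 in endothelial-like nuclei. The members' median ranged from 0.00 to 0.20 in progenitor-like nuclei, from -0.02 to 0.11 in stroma-like, from -0.14 to 0.05 in ureteric epithelium-like and from -0.16 to 0.08 in endothelial-like nuclei. Regions with 80% reciprocal overlap left Max with its intronic region alone, with ratios of 1.13 in progenitor-like and 0.71 in ureteric epithelium-like nuclei. The other members past 0.5 in an alternative were Mycn in endothelial-like nuclei (0.52, total of all called peaks), Mycl (0.57) and Cdkn1a (-0.66) in endothelial-like nuclei with thinned counts. With at least 200 counts per gene, the share of all genes past 0.5 in either direction was 2.43% in place of 4.56% in ureteric epithelium-like nuclei and 3.81% in place of 7.88% in endothelial-like nuclei. Clusters with at least 20% and 50 nuclei of each library, an alternative chosen after seeing the data, included no progenitor-like cluster.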
